A study of Mus musculus with 6 samples.

Results

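The Dlk1-Dio3 region of mouse chromosome 12 holds one of the largest miRNA clusters of the genome, and its mature miRNAs were followed here in white adipose tissue (WAT). The members were a list of 45 mature miRNA accessions, taken as given to belong to this cluster. That each belongs to it could not be checked, since accessions are not paired with names. A row of the count table was taken when its accession was on the list. The table held 39 of the 45 accessions among 707 mature miRNAs in all, and the other 6 were not analysed here. Of the 39 members, 36 had at least 10 counts summed over the libraries and were tested, together with all other miRNAs that reached this sum (633 in all), and the remaining 3 were too low to test.

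The libraries came from WAT of male ApoE-deficient mice, 3 kept under chronic intermittent hypoxia (CIH) for 8 weeks and 3 controls. Both groups lacked apolipoprotein E, the protein that helps to clear lipoproteins from the blood, and no wild-type group was among the samples, so the response is that of this genotype alone. In CIH the inspired oxygen falls and recovers again and again, as it does in obstructive sleep apnea. The labels and the methods of the study give no age, strain background or fat depot. They do not say that each library came from a mouse of its own, so p-values here measure the spread between these libraries, which may be technical.

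In the Dlk1-Dio3 region, imprinting makes a cell express different genes from the maternal and the paternal chromosome. The paternal copy expresses the protein-coding genes Dlk1, Rtl1 and Dio3, and the maternal copy expresses the noncoding genes Meg3, Rian and Mirg with the miRNAs. DLK1, known as preadipocyte factor, is a membrane protein that holds back the differentiation of fat cell precursors, and DIO3 inactivates thyroid hormone. The miRNAs of the region are known for high levels in embryo, placenta and brain and for falling levels in many adult tissues. Those encoded opposite Rtl1, among them miR-127, miR-136, miR-431, miR-433 and miR-434, are fully complementary to the Rtl1 transcript and can direct its cleavage.

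The RefSeq annotation of GRCm38.p6 placed 58 miRNA hairpins with 113 mature names between Dlk1 and Dio3, of which 54 lay on the plus strand. By GENCODE release M21, Rtl1 runs on the minus strand from chr12:109589193-109600330, and 6 of the 7 hairpins inside it lay on the opposite strand. Rian (chr12:109603940-109661716) held 3 hairpins, and Mirg (chr12:109729764-109749460) held 14. Of the genes checked (Dlk1, Meg3, Rtl1, Rian, B830012L14Rik, Mirg and Dio3), none held Mir411 (chr12:109710175-109710256, plus strand). It lay between the noncoding gene B830012L14Rik and Mirg. The group from miR-379 to miR-410 starts just upstream of it.

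**Figure D1:**
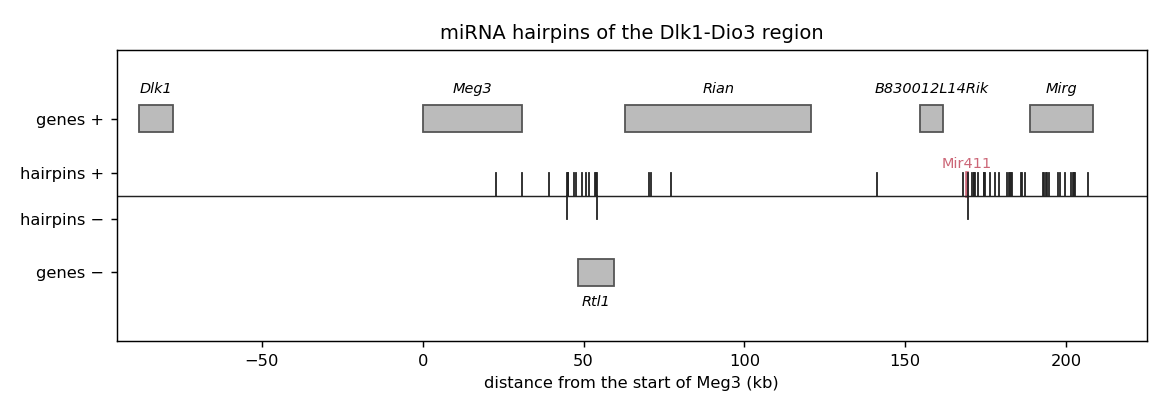
Position of the miRNA hairpins of the Dlk1-Dio3 region, in kb from the start of Meg3, with hairpins of the plus strand drawn upward, those of the minus strand downward, and the named genes as grey bars above (plus strand) or below (minus strand). The map shows 57 of the 58 hairpins, the last one lying 737.05 kb from Meg3 next to Dio3, and Mir411 is drawn in red within the dense group that follows B830012L14Rik.

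Because the count table lists miRNAs by accession and does not pair accessions with names, a name could be given to 1 member. MIMAT0001093 is stated in the list to be miR-411-3p, which the study took on to RT-qPCR. The study reported it as downregulated by RT-qPCR, the direction it also reported from sequencing. All other members are given by accession, and no arm, hairpin or seed was assigned to them. The mature miRNAs below come from the hairpins opposite Rtl1 and from the group from miR-379 to miR-410, shown with the seed, bases 2 to 8, in capitals, as RefSeq gives them on GRCm38.p6. They show how the seeds differ within these groups, and no other hairpins of the locus are shown.
miR-431-5p: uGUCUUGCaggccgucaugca
miR-433-3p: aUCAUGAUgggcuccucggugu
miR-127-3p: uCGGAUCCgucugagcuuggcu
miR-136-5p: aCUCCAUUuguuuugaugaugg
miR-379-5p: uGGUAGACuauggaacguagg
miR-411-5p: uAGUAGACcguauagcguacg
miR-376b-3p: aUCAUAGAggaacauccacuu
miR-376a-3p: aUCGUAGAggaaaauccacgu
miR-300-3p: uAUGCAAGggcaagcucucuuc
miR-381-3p: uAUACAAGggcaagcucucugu
miR-410-3p: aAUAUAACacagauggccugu

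Most of the mature miRNAs of the locus have a seed of their own. Over the 113 mature names, 104 distinct seeds were found, and 9 seeds were shared by a pair of names. Several pairs are nevertheless close in sequence. With positions counted from 1 at the 5′ end, miR-376b-3p and miR-376a-3p differ by A4G, C13A and U20G, and miR-300-3p and miR-381-3p differ by G4A, U21G and C22U. In each of these pairs the first difference lies in the seed.

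The sequences around miR-411-3p are printed because the study named this miRNA and its assay. The hairpin Mir411 is shown with both arms in capitals. The mature miR-411-3p (chr12:109710225-109710246) and miR-379-3p (chr12:109709102-109709123), from the neighbouring hairpin, are shown with the seed in capitals, and the primer with the part identical to miR-411-3p in capitals.
Mir411: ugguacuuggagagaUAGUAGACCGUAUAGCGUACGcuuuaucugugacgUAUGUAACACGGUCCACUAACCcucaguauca
miR-411-3p: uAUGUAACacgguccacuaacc
miR-379-3p: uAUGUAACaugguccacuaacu
miR-411-3p primer: ggggTATGTAACACGGTCCA

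The seed of miR-411-3p was found in 2 of the 1679 mouse mature names of the RefSeq table, miR-411-3p itself and miR-379-3p. Read from miR-379-3p to miR-411-3p, these 22-base sequences differ by U10C and U22C. The primer matched bases 1 to 16 of miR-411-3p and differed from miR-379-3p by 1 base, C10T in DNA letters. How the authors assigned reads that match both is not given in the sources used here, so the counts of miR-411-3p are uncertain to that extent.

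The libraries held between 636963 and 4783768 counts, and the TMM factors, which correct for composition, lay between 0.575 in control 1 and 1.45 in CIH 3. Control 3 was closer to the CIH libraries than to the other controls. Over the 633 miRNAs tested, its log2 levels correlated with those of the CIH libraries at 0.961 to 0.978 and with those of control 1 and control 2 at 0.612 and 0.674. Control 1 and control 2 correlated with each other at 0.834. These are correlations across miRNAs, which are not independent replicates. In control 1 and control 2, 487 and 552 miRNAs were detected, against 636 in control 3 and 640, 631 and 649 in the CIH libraries. The median level of all miRNAs tested was 10.2 and 9.17 TMM-normalized CPM in control 1 and control 2, against 18.9 in control 3. It was 20.9, 19.4 and 21.7 in the CIH libraries. Which controls are the unusual ones was not tested. Results on the members are therefore also given without control 3. WAT itself could not be checked by marker miRNAs, since their accessions are not paired with names.

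The members made up a small share of each library. Their summed counts were 1032, 11726 and 1586 in control libraries 1, 2 and 3, and 1951, 1409 and 1555 in CIH libraries 1, 2 and 3. As a share of all counts this was 0.0756%, 0.245% and 0.200% in the controls and 0.124%, 0.191% and 0.244% in the CIH libraries. The exact (Clopper-Pearson) 95% intervals cover counting error only, and the widest of them ran from 0.232% to 0.257% in CIH 3. The lowest and the highest share were both found among the controls.

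After TMM normalization, which gives CPM (counts scaled to a common library size), the summed level of the members was 1314, 2829 and 1430 TMM-normalized CPM in the controls and 1567, 1522 and 1687 in the CIH libraries. Control 2 stood above all others, and the CIH libraries lay between control 3 and control 2. The log2 ratio of the CIH mean to the control mean was -0.22, while it was 0.10 with library totals in place of TMM factors and 0.22 without control 2. The difference between the group means was smaller than the spread among the controls, and its sign turned with library totals, a scaling under which the median difference over all miRNAs also rose, by 0.26 on the log2 scale. In bulk tissue, fewer cells that express the cluster and less of its RNA per cell cannot be told apart.

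The members covered a wide range of levels. Only 13 of the 39 members had at least 10 counts in every library, and 10 members had at most 3 counts in every library of at least one group. A count of 0 allows up to 3 counts, which in a CIH library stood for 2.41 to 3.25 TMM-normalized CPM. For such members the values rest on a few counts.

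The 5 most abundant members held most of the cluster's counts. MIMAT0000139 had 184, 1987 and 467 counts in the controls and 529, 489 and 566 in the CIH libraries, which stood for 234, 479 and 421 against 425, 528 and 614 TMM-normalized CPM. Control 1 was the lowest and CIH 3 the highest library, and the groups overlapped. CIH and control differed by 0.47 on the log2 scale (SE 0.58), with an adjusted p of 0.882 by the quasi-likelihood test of edgeR, and by -0.15 with upper-quartile factors, which moved the median of all miRNAs by -0.59.

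MIMAT0000743 showed the widest spread among the abundant members. It had 372, 4414 and 229 counts in the controls and 274, 155 and 162 in the CIH libraries. Its levels were 473, 1065 and 206 TMM-normalized CPM in the controls and 220, 167 and 176 in the CIH libraries. Control 1 and control 2 lay far above the other libraries, and control 3 lay inside the range of the CIH group. The log2 fold change was -1.63 with a standard error of 0.75, and edgeR gave an adjusted p of 0.882 (unadjusted p = 0.0678). Without control 3 it was -2.03 with an adjusted p of 0.0407 from edgeR, the only member with an adjusted p-value under 0.05 in that fit. Since control 3 was the control within the CIH range, leaving it out favours a smaller p-value for this member by choice, and nothing is drawn from it.

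MIMAT0000746 took the opposite course. Its levels were 107, 75.8 and 175 TMM-normalized CPM in the controls and 267, 198 and 249 in the CIH libraries. Every CIH library lay above every control, and control 3 was the control nearest to them. The mean was 119 ± 50.7 (SD, n = 3) in the controls against 238 ± 35.9 (SD, n = 3) after CIH. The difference was 0.998 on the log2 scale with an SE of 0.57. It passed neither threshold in edgeR, with an adjusted p of 0.882.

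The other members of the 5 most abundant overlapped between the groups. MIMAT0004747 had 63.6, 340 and 115 TMM-normalized CPM in the controls and 91.6, 108 and 103 in the CIH libraries, so that its higher control mean came from control 2. Its log2 fold change was -0.78 (standard error 0.74), and without control 2 it was 0.25. MIMAT0001421 had 67.5, 90.2 and 141 TMM-normalized CPM in the controls and 109, 130 and 135 in the CIH libraries, with a log2 fold change of 0.32 (standard error 0.54), or -0.21 with upper-quartile factors, a move close to that of all miRNAs. The adjusted p from edgeR was 0.882 for the first and 0.889 for the second.

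**Figure D2:**
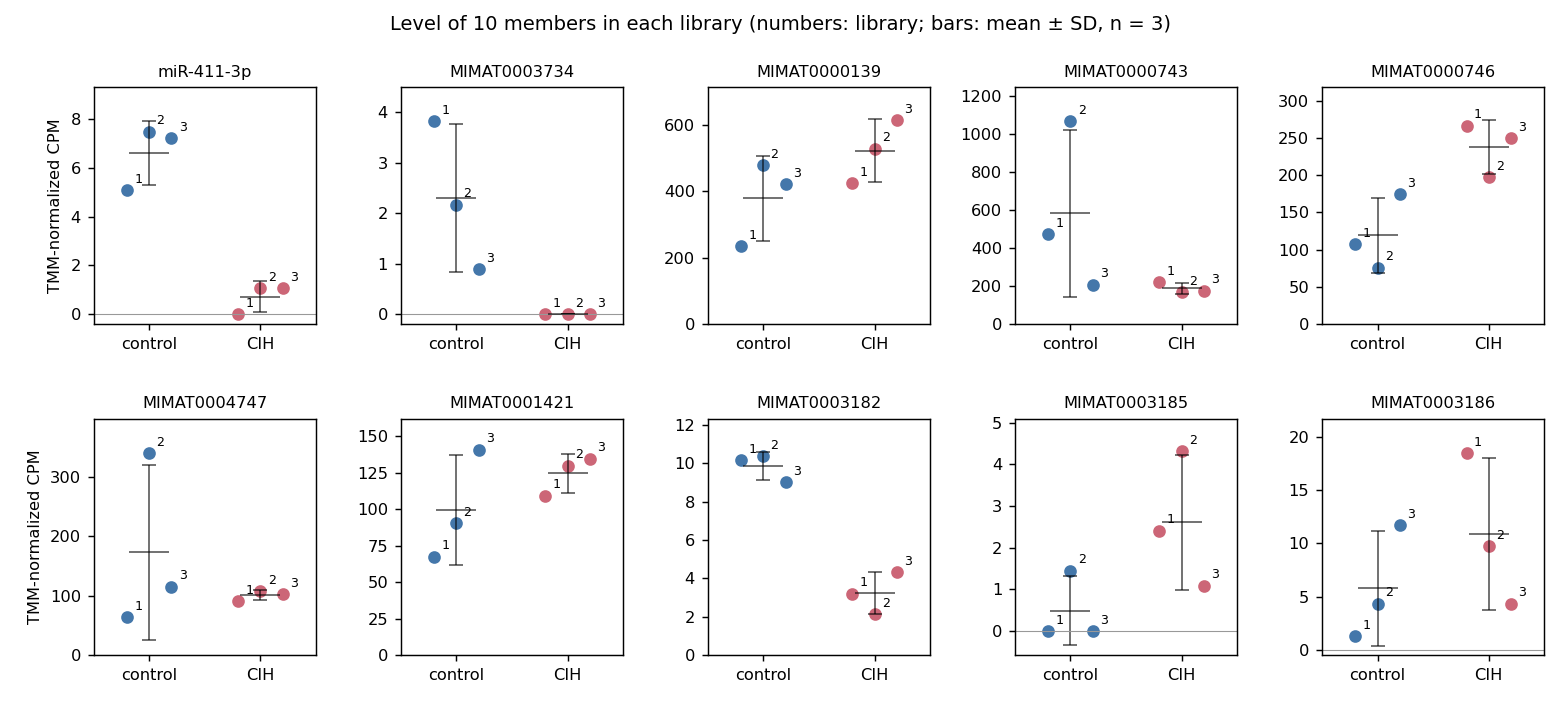
Level of the 10 members named by rule, in each library, in TMM-normalized CPM on a linear axis with its own scale in each panel. Points are libraries with their replicate number, and bars are the mean ± SD of 3 libraries. For miR-411-3p the controls sit between 5.09 and 7.48 and the CIH libraries between 0 and 1.08, while for MIMAT0000743 control 3 (206) sits among the CIH libraries (167 to 220).

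The make-up of the cluster's counts was compared because a ratio of miRNAs within a library does not depend on how the library was scaled. This comparison was chosen after the levels had been seen and carries no test. MIMAT0000743 took 36%, 37.6% and 14.4% of the member counts in the controls and 14%, 11.0% and 10.4% in the CIH libraries. The exact 95% interval was 12.7% to 16.3% in control 3 and 12.5% to 15.7% in CIH 1, so the intervals of these libraries overlapped, although by the shares themselves every control lay above every CIH library. MIMAT0000139 took 17.8%, 16.9% and 29.4% in the controls and 27.1%, 34.7% and 36.4% in the CIH libraries. MIMAT0000746 took 8.14%, 2.68% and 12.2% in the controls and 17.0%, 13.0% and 14.8% in the CIH libraries.

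The ratio of MIMAT0000743 to MIMAT0000139 counts placed control 3 with the CIH libraries. It was 2.02, 2.22 and 0.490 in the controls and 0.518, 0.317 and 0.286 in the CIH libraries. Control 1 and control 2 had more counts of the former, and the other 4 libraries had more of the latter. The ratio of MIMAT0000743 to MIMAT0000746 counts was 4.43, 14.1 and 1.18 in the controls and 0.825, 0.847 and 0.704 in the CIH libraries. By this ratio control 3 lay above all CIH libraries and the groups did not overlap, though control 3 was nearer to the CIH libraries than to the other controls. Over the 36 members tested, the log2 levels of control 3 correlated with those of the CIH libraries at 0.928 to 0.949, and with those of control 1 and control 2 at 0.849 and 0.896. Over all miRNAs tested, too, control 3 correlated more with the CIH libraries than with its own group, and the part of this in the members' differences was not tested.

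**Figure D3:**
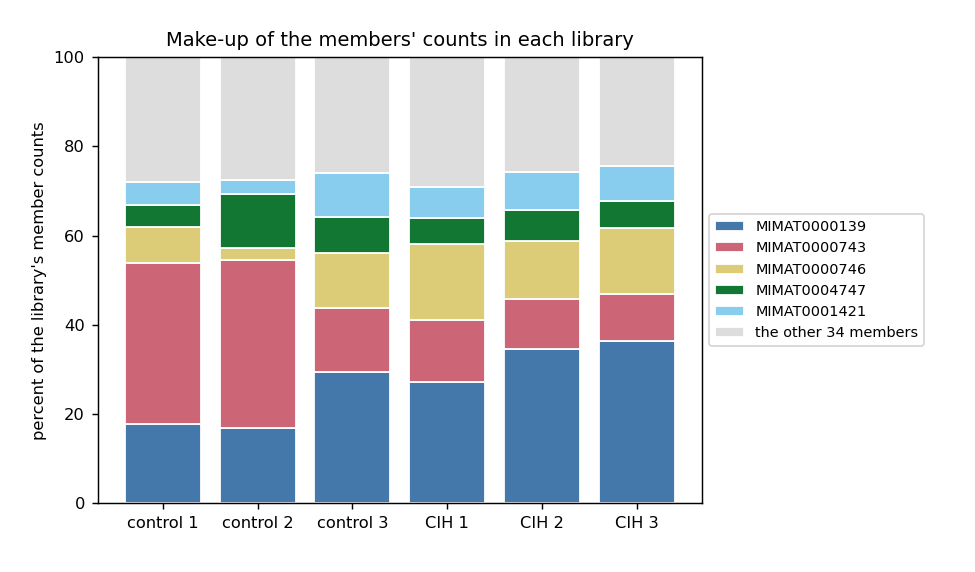
Make-up of the member counts of each library, in percent, for the 5 most abundant members and the other 34 together. The share of MIMAT0000743 is 36% and 37.6% in control 1 and control 2 and lies between 10.4% and 14.4% in control 3 and the CIH libraries, where MIMAT0000139 takes the largest share.

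The groups were then compared for every member, to find those that differ after CIH. A member was called when its unadjusted p-value from edgeR was under 0.05, the level the study states, and its change was at least 1.5-fold. By this rule 2 of the 36 members tested were downregulated in the CIH group and 0 were upregulated. Among all 633 miRNAs tested, 2.05% were called downregulated, 0.474% upregulated and 2.53% in either direction. The members' share was 5.56%, which rests on 2 miRNAs with few counts. After Benjamini-Hochberg adjustment over all miRNAs, 0 members and 0 of the 633 miRNAs (0%) had a p-value under 0.05. DESeq2 and limma voom also gave 0 members after adjustment. By the unadjusted rule DESeq2 called 3 members (8.33%), against 4.11% of all miRNAs, and limma voom called 2 members (5.56%), against 11.8%. The members' share was thus above that of all miRNAs in edgeR and DESeq2 and below it in limma voom.

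Among the members, miR-411-3p had the smallest unadjusted p-value. It had 4, 31 and 8 counts in the controls and 0, 1 and 1 in the CIH libraries. These stood for 5.09, 7.48 and 7.21 TMM-normalized CPM in the controls and 0, 1.08 and 1.08 in the CIH libraries. All 3 controls lay above all CIH libraries, control 3 included. The controls lay close together under TMM scaling, on only 4 and 8 counts in control 1 and control 3. As a share of the member counts they stood at 0.388%, 0.264% and 0.504%, against 0%, 0.0710% and 0.0643% in the CIH libraries. The mean level was 6.59 ± 1.31 TMM-normalized CPM (SD, n = 3) in the controls against 0.722 ± 0.625 (SD, n = 3) after CIH.

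For miR-411-3p the log2 fold change was -3.14 with a standard error of 1.05. By edgeR its unadjusted p was 0.0218 and its adjusted p 0.882, so it passed the first threshold and not the second. Over the summed counts, 43 in the controls and 2 in the CIH group, the control level was 11.0 times the CIH level, with an exact 95% interval of 2.87 to 93.8 for counting error only. The direction was lower in CIH in all 13 alternatives that tested it, with log2 fold changes of -3.70 to -2.49. Every control lay above every CIH library and all alternatives reuse these counts, so the sign could hardly turn and adds no support. The call was lost without CIH 1 (unadjusted p = 0.0627), without CIH 2 (0.0558) and without CIH 3 (0.0542), with library totals in place of TMM factors (0.0659) and with the replicate number as a block (0.0622), all from edgeR. Over the 13 alternatives the unadjusted p ran from 0.0117 to 0.0659.

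The second member called, MIMAT0003734, had 3, 9 and 1 counts in the controls and 0 in each CIH library. Its control mean of 2.30 ± 1.46 TMM-normalized CPM (SD, n = 3) lay below the 2.97 that the floor of 3 counts stands for on average in the CIH libraries, so no fold is given. The unadjusted p from edgeR was 0.0335 and the adjusted p 0.882. The call was lost with DESeq2, with the replicate number as a block, and when any library other than control 3 was left out.

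MIMAT0003182 came next among the members that were lower after CIH. It had 8, 43 and 10 counts in the controls and 4, 2 and 4 in the CIH libraries, or 10.2, 10.4 and 9.01 against 3.21, 2.16 and 4.34 TMM-normalized CPM. Under TMM scaling the controls differed little among themselves, and all 3 lay above the CIH libraries. As a share of the member counts the controls were further apart, at 0.775%, 0.367% and 0.631%. The CIH libraries stood at 0.205%, 0.142% and 0.257%. MIMAT0003182 had a log2 fold change of -1.58 (SE 0.67), with 0.882 as the adjusted and 0.0527 as the unadjusted p of edgeR. Over 13 alternatives the unadjusted p ran from 0.0234 (edgeR, upper-quartile factors) to 0.187 (edgeR, library totals). It was called in 3 of them, with DESeq2 (unadjusted p = 0.0438), with upper-quartile factors and without control 3.

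The members with the smallest p-values among those higher in CIH were MIMAT0000746, described above, MIMAT0003185 and MIMAT0003186. MIMAT0003185 had 0, 6 and 0 counts in the controls and 3, 4 and 1 in the CIH libraries, a difference of 1.79 on the log2 scale (SE 1.25) with an adjusted p of 0.882 by edgeR. It was called higher in CIH without control 2, where both remaining control libraries are at 0. MIMAT0003186 had 1, 18 and 13 counts in the controls and 23, 9 and 4 in the CIH libraries, and its levels of 1.27, 4.34 and 11.7 against 18.5, 9.72 and 4.34 TMM-normalized CPM overlapped.

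Of the other 26 members tested, 16 had a log2 fold change below 0 and 10 above, and edgeR gave unadjusted p-values from 0.0807 to 0.979. Apart from 1 member at 0 in every CIH library, their log2 fold changes ran from -1.56 to 0.92. In 25 of them the groups overlapped. The examples that follow are named after their values were seen, for the level and the spread they stand for. MIMAT0003170 had 38.2, 152 and 104 TMM-normalized CPM in the controls and 77.9, 102 and 75.9 in the CIH libraries. MIMAT0000148 had 44.5, 142 and 19.8 in the controls and 49.0, 30.3 and 29.3 in the CIH libraries. In both, control 2 was the highest library and the CIH libraries lay within the range of the controls.

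MIMAT0000378 had 14, 38.8 and 27.9 TMM-normalized CPM in the controls, whereas the CIH libraries were almost level at 29.7, 30.3 and 30.4. MIMAT0001095 went against this pattern of a narrow CIH group, with 34.4, 5.07 and 3.61 in the controls and 3.21, 17.3 and 23.9 in the CIH libraries. MIMAT0003168 had 0, 20 and 1 counts in the controls and 0 in each CIH library. Of its 21 counts 20 came from control 2, the deepest library, and no fold is given for it.

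Over all 36 members tested, 21 members (58.3%) had a log2 fold change below 0 and 15 had one above. Among all miRNAs tested, 47.6% lay below 0. The median was -0.21 over the members and 0.07 over all miRNAs tested. For the 2 members at 0 in every CIH library, a bound was set by the floor of 3 counts in each library. Their control means were 0.64 (MIMAT0003168) and 0.77 (MIMAT0003734) of that floor, so the bound was no change. With it the median of the members was -0.04. By summed counts, the exact 95% limit, for counting error only, put the control level of MIMAT0003168 at 2.67 times the CIH level or more. For MIMAT0003734 this limit was 1.56, so the move of the median rests on the floor chosen. Other scalings move all miRNAs together, so the median of the members is given beside that of all miRNAs. It was 0.11 with library totals, against 0.33, and -0.89 with upper-quartile factors, against -0.52. Relative to all miRNAs the members were at -0.28 with TMM factors, at -0.22 with library totals and at -0.38 with upper-quartile factors, on the log2 scale. Without control 2 the median was 0.33 over the members and 0.28 over all miRNAs, so the members were no longer the lower ones.

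Groups that did not overlap were found for 5 of the 36 members (13.9%), against 8.06% of all miRNAs tested. In 4 of them, every CIH library was lower (11.1%, against 3% of all miRNAs), a share that rests on these 4 miRNAs. The 4 were miR-411-3p, MIMAT0003734, MIMAT0003182 and MIMAT0000146, the last of which is named here after its values were seen. In MIMAT0003734, control 2 (2.17 TMM-normalized CPM) and control 3 (0.901) lay below the 2.41 to 3.25 that a count of 0 allows in a CIH library. MIMAT0000146 had 35.6, 70.0 and 24.3 TMM-normalized CPM in the controls and 18.5, 17.3 and 20.6 in the CIH libraries, a log2 difference of -1.21 (SE 0.62) with an edgeR adjusted p of 0.882. The fifth was MIMAT0000746, the only member of the 36 with every CIH library higher (2.78%, against 5.06%).

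**Figure D4:**
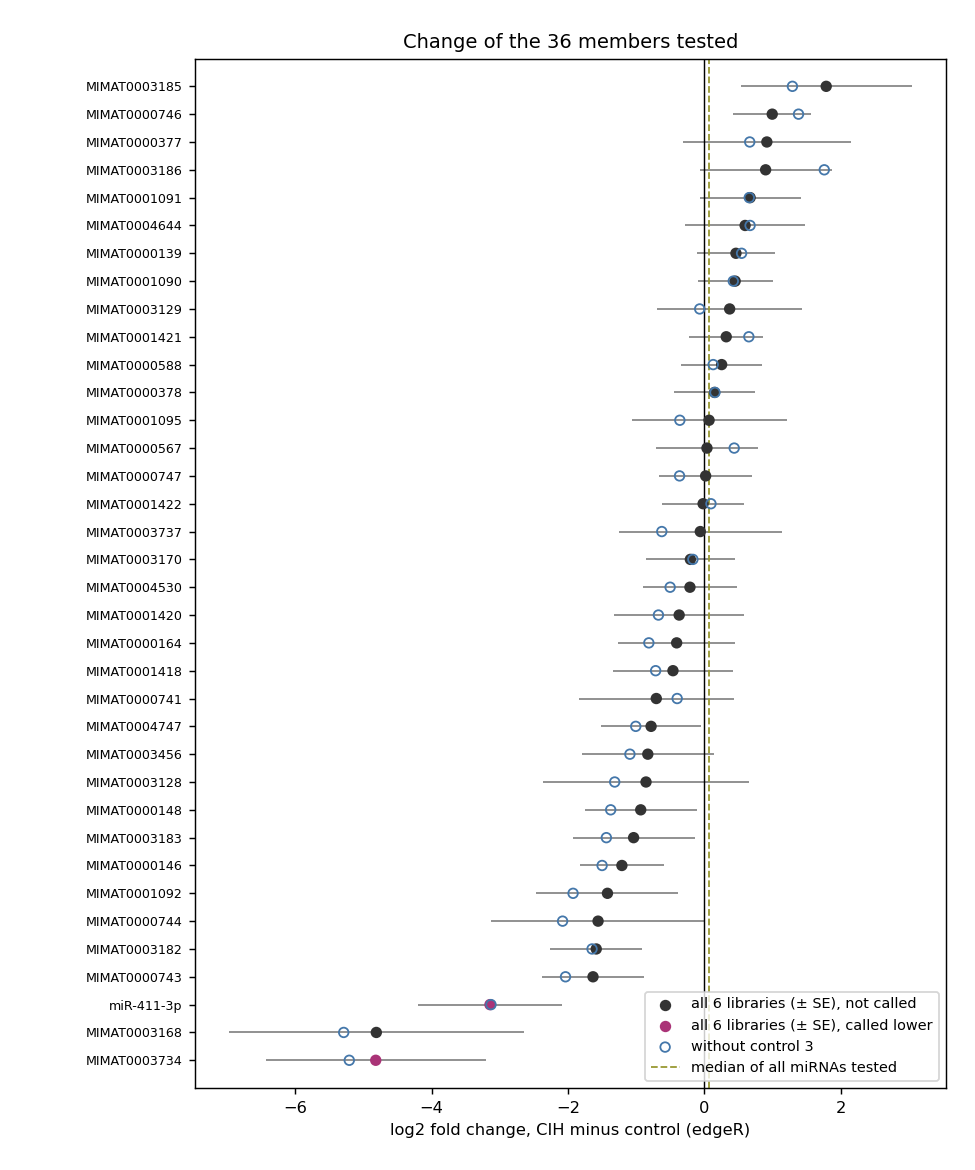
Log2 fold change (CIH minus control) of the 36 members tested, with filled points and standard errors for all 6 libraries, purple where called, and open points for the fit without control 3. The dashed line is the median of all miRNAs tested (0.07), and 21 filled points lie below 0. The lowest points, MIMAT0003734 and MIMAT0003168, are at 0 counts in every CIH library, so their fitted values depend on the prior count and are no measure of size.

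Control 3 was left out because it resembled the CIH libraries, a choice that favours larger differences between the groups, and the counts are read only against those of all miRNAs. By the same rule 7 of the 36 members (19.4%) were called, against 37.6% of all 633 miRNAs. Of these, 6 members were downregulated (16.7%, against 11.8%) and 1 was upregulated (2.78%, against 25.8%). The 6 were miR-411-3p, MIMAT0003734, MIMAT0003182, MIMAT0000743, MIMAT0000146 and MIMAT0001092, and the upregulated member was MIMAT0000746. MIMAT0000146 and MIMAT0001092 are named because they were called here. After adjustment 1 member (2.78%) had a p-value under 0.05 from edgeR, against 18.6% of all miRNAs.

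For miR-411-3p control 3 made little difference to the estimate. The log2 fold change was -3.13 without it, against -3.14 with all libraries, and control 3 had 8 counts where no CIH library had more than 1. For MIMAT0000746 it was 1.38 without control 3, against 0.998 with all libraries. The level of miR-411-3p was thus lower in every CIH library than in every control, on 0 or 1 counts for each CIH library. As a share of the member counts, its exact 95% interval was 0.106% to 0.989% in control 1 and 0.00180% to 0.395% in CIH 2, so these intervals overlapped too.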

How the data were processed

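The authors deposited raw read counts per mature miRNA, with no normalization, for 3 control and 3 CIH libraries. The trimming, the aligner, the genome build, the miRNA release and the assignment of ambiguous reads are not given in the sources used here. Libraries were grouped by their labels. No library was a copy of another by a chi-square comparison of counts, and each was 1 replicate.

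All 633 miRNAs with a summed count of at least 10 were fitted with edgeR 4.0.16 in R 4.3.3, by its quasi-likelihood test with TMM factors and no covariate, and p-values were adjusted by Benjamini-Hochberg over all of them. Standard errors were taken as the size of the fold change over the root of the F statistic. The rule for naming took miR-411-3p, members with an unadjusted p-value under 0.05, the 5 most abundant, and, for either direction, the 3 of lowest p-value. The fit was tested on simulated data with known changes. At low spread it had to recover the changes, while at a spread near that observed only their direction was required. The test thus gives no assurance of power at the observed spread. Correlations used log2(TMM-normalized CPM + 2).

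Alternatives were DESeq2 1.42.0, limma 3.58.1 with voom, RLE factors, library totals, upper-quartile factors, 2 other filters, the replicate number as a block, and each library left out. Positions and sequences came from RefSeq GRCm38.p6 and GENCODE M21. The member list, the alternatives and the rules were chosen with earlier results of these data known. Because accessions are not paired with names, arm ratios, the other miRNAs of the locus and markers of other cells were not run. An exact permutation test of 3 against 3 cannot go below 0.1.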

Additional observations from a re-analysis of the deposited data

How the results depend on the processing

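By the unadjusted rule 2 members were called with the main settings, both lower in CIH, and 2.53% of all miRNAs. Library totals gave 1 member (2.05% of all miRNAs), upper-quartile factors 5 (6.16%), and a minimum of 10 counts in each library, which left 13 members and not miR-411-3p, gave 1 (MIMAT0000146; 4.62%), in each case with all calls lower. DESeq2 gave 3 (4.11%), limma voom 2 (11.8%), RLE factors 2 (2.69%) and no filter 2 (3.11%). DESeq2 and upper-quartile factors also called MIMAT0000743 and MIMAT0003182. Leaving out each library in turn gave 0 to 7 members called, 0 to 6 lower and 0 to 1 higher, and the calls over all miRNAs moved with them, from 0.158% to 0.948% without a CIH library, where 0 members were called, to 37.6% without control 3, where 7 were. After adjustment the range was 0 to 1, with 1 without control 3, and all other settings gave 0.

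The median log2 fold change of the members was -0.21, and it became 0.11 with library totals, -0.89 with upper-quartile factors and 0.11 with that minimum, against 0.07, 0.33, -0.52 and -0.05 over all miRNAs. Leaving out single libraries moved it between -0.62 and 0.33. The members' median lay below that of all miRNAs in each setting but that minimum and without control 2. The log2 ratio of the summed levels was -0.22, became -0.91 with upper-quartile factors, and lay between -0.42 and 0.22 when single libraries were left out. With upper-quartile factors, which moved the median of all miRNAs by -0.59, MIMAT0000139 (-0.15) and MIMAT0001421 (-0.21) changed sign with that common shift. MIMAT0004747 changed sign without control 2 (0.25, in a range from -1.18 over single libraries left out).

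Both groups carry the replicate numbers 1 to 3. Measured from the group means, libraries that share a number correlated at 0.369, -0.124 and 0.0190, and 2 of the 6 libraries were closest to their own number. The labels do not say whether these numbers mark pairs. The correlations cannot decide it, since each group mean rests on 3 libraries. The main fit used no pairs. With the replicate block, 0 members and 0.474% of all miRNAs were called, and miR-411-3p had a log2 fold change of -3.25 (unadjusted p = 0.0622 from edgeR).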
